A study of Mus musculus with 192 samples.

Results

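Homozygous (HOM) L44 mice were compared with nontransgenic (NON) mice at T2 in the left and the right cortex, in brains collected in the afternoon (PM). T2 is the onset of diabetes in the transgenic mice. The study reports a lower mean blood glucose and body weight in its T2 NON controls. Genotype therefore cannot be told apart from blood glucose and body weight here. Pools were taken by their labels: 3 HOM and 5 NON pools of each cortex, 16 of the 192 pools of the series. L44 mice carry a human amylin gene altered to encode a non-aggregating triprolyl form (tripro-hA), driven by the rat insulin 2 promoter, on the FVB/n background. HOM and NON mice were offspring of hemizygous pairs, all mice were male, and some NON mice also become diabetic in this colony. The study preferred NON littermates as controls and took mice of like age from other litters where none were available. RNA of 2 mice was mixed in each pool, so 6 HOM and 10 NON mice are represented, and the left and right cortex pools of 1 number came from the same mice. The mice were 100 and 128 days old in HOM pool 6/9, 176 and 179 in 4/8, and 171 and 246 in 7/10. NON pools 4/13 (100 and 128 days), 5/10 (185 and 175 days) and 6/9 (171 and 236 days) closely match these ages, and NON pools 2/15 (243 and 217 days) and 11/14 (156 and 90 days) have no HOM partner. The 3 hemizygous (HEM) PM pools, used for context, held mice of 156 and 90 days (5/10), 235 and 167 (7/12) and 243 and 215 (8/14). Each group is thus mixed in age, and age cannot be told apart from pool.

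Amylin is co-secreted with insulin by beta cells and acts in the brain through the calcitonin receptor (Calcr) paired with receptor activity modifying proteins (Ramps). Leptin from fat signals through its long receptor form, Jak2 and the transcription factor Stat3, and Stat3 induces Socs3, which in turn restrains leptin and insulin receptors. Insulin signals through its receptor, the Irs adaptors, phosphoinositide 3-kinase and the Akt kinases. These pathways limit feeding, mainly in the hypothalamus and hindbrain, and their components are also expressed in the cortex.

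The promoter of Socs3 is shown with its STAT motif, because Socs3 and Stat3 were high in the same libraries below. The sequence is RefSeq's on GRCm38.p6, minus strand, chr11:117969317-117969616, from 250 bases before to 50 after the gene start. Capitals mark the only match to TTCNNNGAA, a palindrome that reads the same on both strands. It begins 154 bases before the gene start.
Socs3: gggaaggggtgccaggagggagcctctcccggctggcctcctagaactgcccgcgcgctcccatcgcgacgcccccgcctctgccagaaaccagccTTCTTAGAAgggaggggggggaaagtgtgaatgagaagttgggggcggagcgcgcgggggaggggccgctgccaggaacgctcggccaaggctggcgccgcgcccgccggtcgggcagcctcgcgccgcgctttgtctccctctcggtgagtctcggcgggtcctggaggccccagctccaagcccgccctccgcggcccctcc
Of the 32851 promoters of this length in the RefSeq table, 8.30% hold this motif, and that of Stat3 holds none. A match is a stretch of letters, not a measured binding site.

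The nCounter platform counts each mRNA with a barcoded probe, and 43 target genes and 3 reference genes were counted in each pool. The 43 genes summed to 236718 to 431080 counts per left cortex library and 429013 to 499537 per right cortex library. Normalised counts are raw counts over the pool's geometric mean of the 3 reference genes, brought back to the count scale of its region. Background in a library was set at 2 SD above the mean of its 8 negative control probes. Of the 43 genes, 35 were above background in all 16 libraries, 6 in some and 2, Calcr-1a and Ins2, in none. The cortex is not the main site of 5 genes that mark hypothalamic neurons (Hcrt, Mch, Agrp, Pomc and Hdc), and their summed level is given with the results it touches. In bulk RNA, fewer cells of a type and less RNA per cell cannot be told apart.

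A single library stood apart from the rest. The left cortex library of HOM pool 6/9 had the lowest reference gene mean of the 16, 4269 counts, and a mean of 2.75 counts on the negative control probes against 8.75 to 18.6 in the other 7 left cortex libraries. In this library 13 of 43 genes lay more than 0.58 (log2) from the mean of the 5 NON pools, compared with 5 in HOM pool 7/10, 4 in 4/8 and 1 or 2 in each NON pool. The right cortex library of the same mice, with 8058 reference counts, had 3 such genes. Of the 13 on the left, Ins2 (-2.5), Calcr-1a (-1.97), Hcrt (-1.81) and Ins1 (-1.52) were at or under background in that library. Each NON pool is itself part of the mean it was set against. Left cortex calls are therefore also given without pool 6/9.

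**Figure D1:**
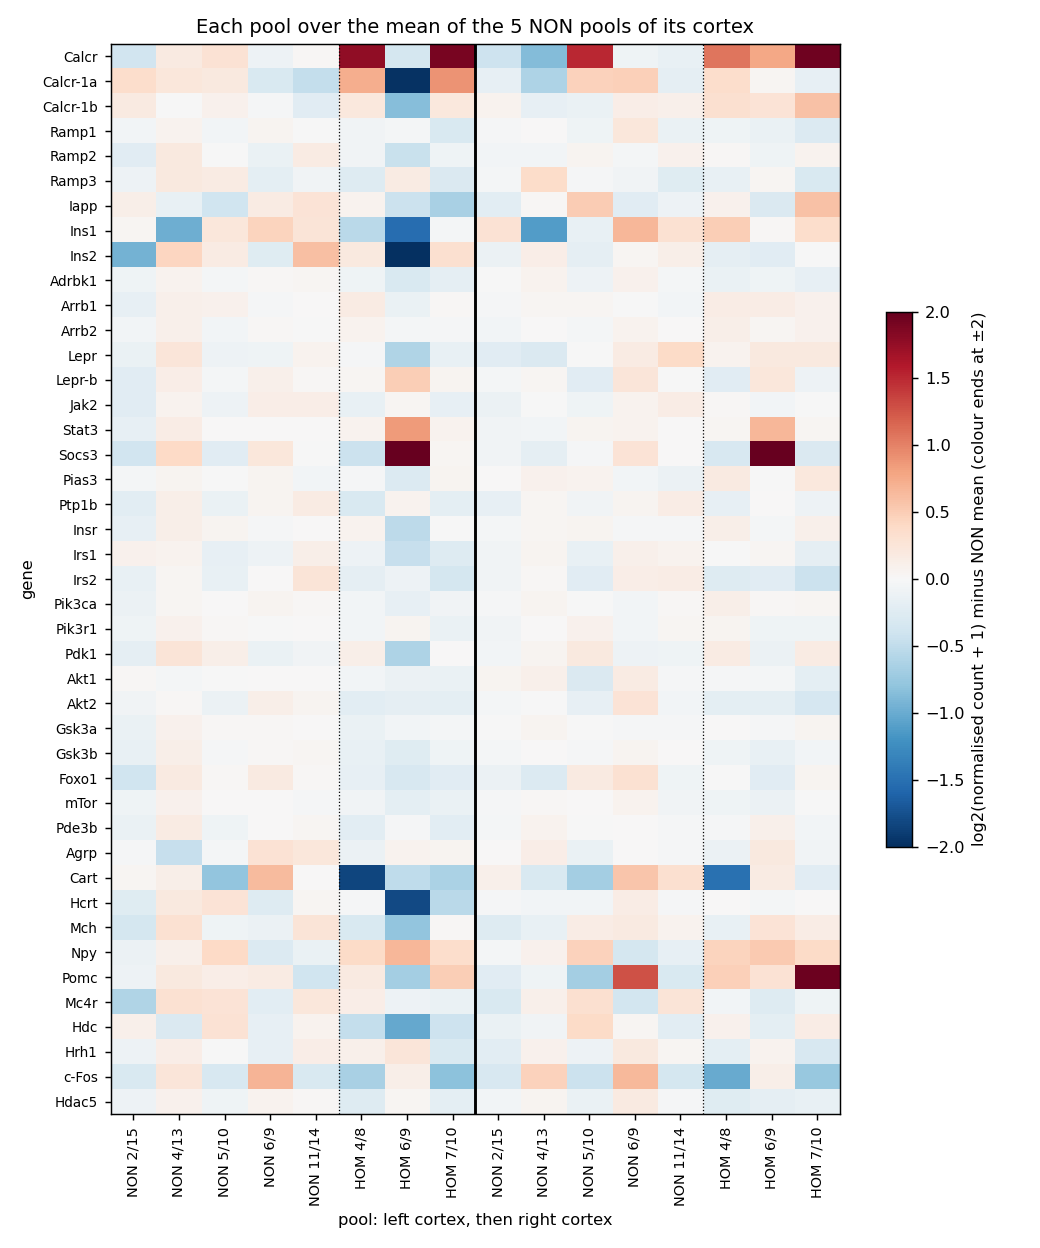
Each of the 43 genes (rows) in each of the 16 libraries (columns), as the log2(normalised count + 1) minus the mean of the 5 NON pools of the same cortex; red is higher, blue lower, and colour ends at 2 in either direction. Left cortex HOM pool 6/9 has the most coloured cells (13 genes beyond 0.58), and Socs3 and Stat3 are red in pool 6/9 on both sides.

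In the quasi-likelihood test of edgeR (Benjamini-Hochberg adjusted for 43 genes), Stat3 and Socs3 rose and Adrbk1 and Hdc fell in the HOM left cortex. These 4 genes are 9.30% of the panel. No gene passed the test in the right cortex (0%), where the same test gave 8 genes with an unadjusted p under 0.05 and DESeq2 gave 0 calls. Of the 4 left cortex genes, only Socs3 changed by more than 1 on the log2 scale, and Socs3 and Hdc by more than 0.58 (1.5-fold). Leaving out 1 pool ended all 4 calls for HOM pool 6/9, NON pool 6/9 and NON pool 11/14 (adjusted p of 0.0606 or more from edgeR), and those of Hdc, Socs3 and Stat3 for NON pool 2/15 (0.0612 to 0.0861). All 4 left cortex calls were also lost when pools of like age were paired as a block (adjusted p = 0.0799 for Adrbk1 and for Hdc, 0.167 for Stat3 and 0.257 for Socs3 from edgeR). The log2 fold-changes in that fit were -0.21 for Adrbk1 and -0.58 for Hdc, close to their values without the block (-0.19 and -0.62), 0.28 for Stat3 beside 0.37, and 0.62 for Socs3 beside 1.26. All 4 calls were also lost with only the groups compared in the fit (adjusted p = 0.229 to 0.239 from edgeR). Their log2 fold-changes there were -0.19 for Adrbk1, -0.62 for Hdc, 0.37 for Stat3 and 1.27 for Socs3. Leaving out NON pool 6/9 or 11/14 kept all 4 near their values, with Socs3 at 1.32 and 1.25. Without NON pool 2/15 Hdc was at -0.60, Socs3 at 1.18 and Stat3 at 0.34. Without HOM pool 6/9 Adrbk1 was at -0.13 and Hdc at -0.46, while Stat3 fell to 0.07 and Socs3 turned to -0.20. Since the cortices of a pool are the same mice, left and right counts were also summed, and each pool was used once. That combined test called no gene (0%), and 11 genes had an unadjusted p under 0.05. DESeq2 called 3 of them, Adrbk1, Akt2 and Gsk3b, all lower in HOM. The separation of the groups was also described without a test. In the left cortex every HOM pool lay above every NON pool for 0 genes (0%) and below for 4 (9.30%), and in the right cortex above for 2 (4.65%) and below for 4 (9.30%). Only Akt2 lay below in both cortices (2.33%), and no gene lay above in both (0%).

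Most left cortex genes leaned slightly down against the reference genes, with a median log2 fold-change over the panel of -0.14 and 34 of 43 genes below 0. The left median was -0.10 without HOM pool 6/9, with 30 of 43 below 0. The right cortex had a median of 0.0034, with 21 genes below 0. Scaling on the 43 genes themselves (TMM) moved the left median to -0.01 with 23 of 43 genes below 0, so small left cortex differences depend on the scale. With TMM, 3 genes passed in the left cortex, Calcr, Socs3 and Stat3, all higher, and neither Adrbk1 nor Hdc did. Of these Adrbk1 moved from -0.19 to -0.07 (adjusted p = 0.732), while Hdc stayed near its value, at -0.50 beside -0.62 (adjusted p = 0.0578 from edgeR). With DESeq2 size factors 4 passed, 3 higher and 1 lower, beside 2 and 2 on the reference genes.

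Socs3 and Stat3, of the leptin signalling list of 7 genes, rose in the left cortex, and neither passed without pool 6/9. Socs3, the feedback inhibitor, had 57.4 normalised counts in HOM pool 4/8, 444 in 6/9 and 79.3 in 7/10, against 59.2, 102, 66.3, 90.6 and 76.8 in the NON pools (here and below in the order 2/15, 4/13, 5/10, 6/9 and 11/14). Its right cortex values were 69.7, 412 and 71.7 in the same HOM pools, against 82.9, 76.9, 85.8, 106 and 87.9 in NON. Pool 6/9 was far above every other pool in both cortices, while HOM pool 4/8 lay below every NON pool on both sides and 7/10 inside the NON range on the left and below it on the right. On the log2 scale Socs3 was higher by 1.26 on the left (standard error 0.41, adjusted p = 0.0475 from edgeR) and by 1.06 on the right (standard error 0.38, adjusted p = 0.153). Without HOM pool 6/9 it turned to -0.20 (adjusted p = 0.724 from edgeR) and -0.32 (adjusted p = 0.607), and it passed on the right as well without HOM pool 4/8 (1.45, adjusted p = 0.0249) or 7/10 (1.45, adjusted p = 0.0269). NON pool 4/13, of the same ages as HOM pool 6/9, had 102 and 76.9 normalised counts.

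Stat3, the transcription factor downstream of the leptin receptor, was also high in HOM pool 6/9. Its left cortex normalised counts were 4960 in HOM pool 4/8, 8536 in 6/9 and 5007 in 7/10, against 4249, 5252, 4773, 4749 and 4775 in NON. Right cortex counts were 5923, 9111 and 5920, against 5503, 5523, 5953, 6026 and 5825 in NON. In each cortex only pool 6/9 left the NON range, while in the summed counts every HOM pool lay above every NON pool (log2 fold-change 0.31, adjusted p = 0.103 from edgeR, and 0.05, adjusted p = 0.433, without pool 6/9). No other gene of the panel lay above in this way in the summed counts. More of the 43 genes went the other way there, with every HOM pool below every NON pool for Adrbk1, Akt2, Hdac5, Irs2, Ramp1 and mTor. The panel as a whole leaned down in the summed counts, with 30 of 43 log2 fold-changes below 0. Stat3 was 0.37 higher on the log2 scale on the left (standard error 0.12, adjusted p = 0.0475 from edgeR) and 0.28 higher on the right (standard error 0.11, adjusted p = 0.165), and without pool 6/9 it was 0.07 (adjusted p = 0.717) and 0.04 (adjusted p = 0.856).

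The mice of pool 6/9 were also measured in the midbrain and hindbrain. Socs3 had 389.7 normalised counts in their midbrain library, where the other two HOM pools had 66.4 and 77.0 and the NON pools 50.6 to 66.6. Stat3 had 7448 there, against 5204 and 5051 in the other HOM pools and 4336 to 5168 in NON. In their hindbrain the values were 35.0 for Socs3 and 3619 for Stat3, against 24.0 to 29.9 and 3378 to 3627 in NON. High Socs3 and Stat3 were thus found in 3 separate libraries of these 2 mice, and in the hindbrain Stat3 lay inside the NON range. None of the 3 HEM PM pools was high in either cortex, with Socs3 at 67.3 to 91.3 on the left and 80.0 to 103 on the right.

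**Figure D2:**
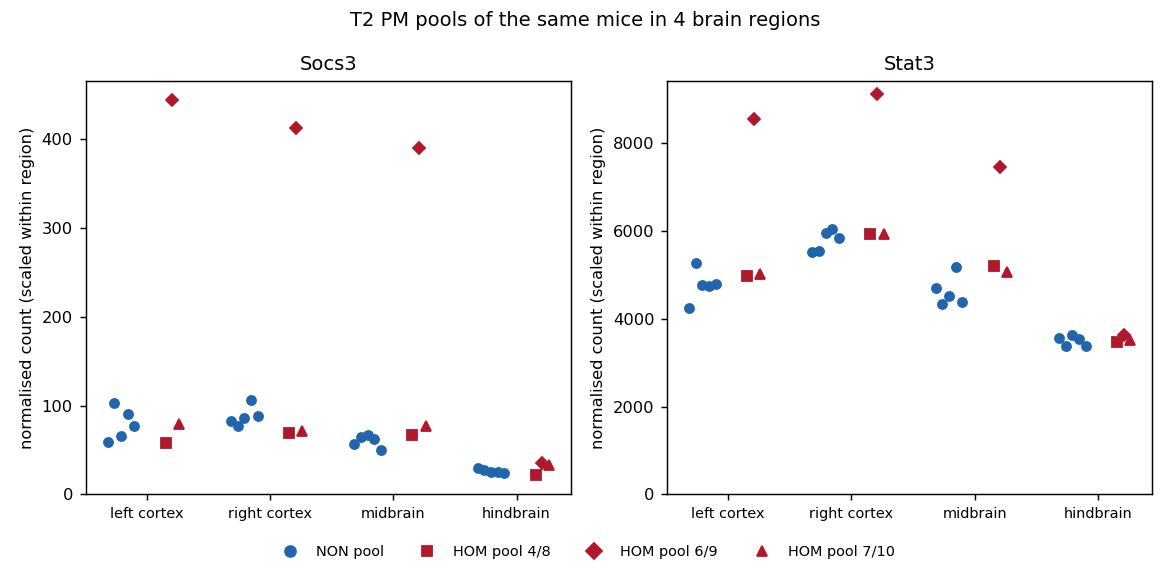
Normalised counts of Socs3 (left panel) and Stat3 (right panel) in the T2 PM pools, by brain region, with blue circles for NON pools and red symbols for the 3 HOM pools; counts are scaled within each region. HOM pool 6/9 (diamond) sits at 444, 412 and 389.7 for Socs3 in the cortices and midbrain, and at 35.0 in the hindbrain, while the other HOM pools stay near the NON pools.

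The other 5 members of the leptin list, the receptor probes Lepr and Lepr-b, the kinase Jak2, the Stat3 inhibitor Pias3 and the phosphatase Ptp1b, did not pass in either cortex. Their log2 fold-changes ran from -0.24 (Lepr) to 0.20 (Lepr-b) on the left side and from -0.09 (Ptp1b) to 0.13 (Lepr) on the right. Without HOM pool 6/9 Lepr was at -0.09 and Lepr-b at 0.04 on the left, and the lowest of the 5 was Ptp1b at -0.26. Over all 7 genes the median was -0.07 and 0.13, beside panel medians of -0.14 and 0.0034. Both lay close to the panel without HOM pool 6/9, at -0.09 beside -0.10 and at 0.0045 beside 0.0042.

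In the amylin receptor list, edgeR on the reference gene scale called no member of 6. The list median was -0.07 in the left cortex and turned to 0.07 without HOM pool 6/9, and it was 0.02 in the right. Calcr, the core of the amylin receptors, had in the left cortex 74.1, 16.2 and 80.6 normalised counts in HOM pools 4/8, 6/9 and 7/10 and 15.7, 23.7, 25.7, 19.3 and 21.3 in NON, where 4 of the 5 NON libraries were at or under background. Its right cortex counts were 80.7, 65.6 and 147.8, against 28.1, 20.4, 109.6, 35.7 and 33.9 in NON. HOM pools 4/8 and 7/10 were above every NON pool in the left cortex, pool 6/9 was not, and in the right cortex NON pool 5/10 lay among the HOM pools. Its log2 fold-changes were 1.46 (left; standard error 0.49, adjusted p = 0.0509 from edgeR) and 1.11 (right; standard error 0.45, adjusted p = 0.165). The left fold-change rests on these NON libraries at background, and it was 2.45 with the negative controls subtracted (adjusted p = 0.0476). Calcr also passed on the left with TMM (1.58, adjusted p = 0.0362), DESeq2 size factors (1.55, adjusted p = 0.0313) and the DESeq2 test (1.44, adjusted p = 0.0376). Of 12 other settings 7 called it there. Among the 7 is the fit without HOM pool 6/9 and NON pool 5/10 together (1.94, adjusted p = 0.0407 from edgeR). That setting was added after seeing the data and removes the lowest HOM pool. The filter on background left Calcr out, so that setting is not among the 12. With pools of like age paired as a block it was 1.18 (adjusted p = 0.189 from edgeR). Calcr passed in the left cortex without HOM pool 6/9 (1.86, adjusted p = 0.0285) and in both cortices without NON pool 5/10 (1.54, adjusted p = 0.0483, and 1.73, adjusted p = 0.0139). Without HOM pool 7/10 it was lower on both sides, at 1.12 (adjusted p = 0.188) and 0.69 (adjusted p = 0.751). HEM PM pools, tested against the same NON pools, had 177, 129.6 and 32.0 left cortex counts, and Calcr was the only HEM gene called in the left cortex (2.33%), with a log2 value of 2.42 over NON (edgeR adjusted p = 0.000671). On the right no gene was called in HEM (0%). Calcr is far more abundant in the midbrain block, with 699.7 to 1011 counts (scaled within that region) in the HOM and NON PM pools, and the part of adjoining tissue in the cortex values was not tested.

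The remaining 5 receptor probes did not pass in either cortex. Calcr-1a and Calcr-1b count 2 forms of the same gene, and Calcr-1a was at or under background in all 16 libraries. Calcr-1b, above background in 6 of 16 and named here for its values, had 28.0 to 35.1 right cortex counts in HOM against 20.4 to 25.2 in NON, which do not overlap (log2 fold-change 0.41, adjusted p = 0.261 from edgeR). Ramp1, Ramp2 and Ramp3, which give the calcitonin receptor its affinity for amylin, had log2 fold-changes of -0.20 to -0.12 on the left and -0.17 to 0.0034 on the right. Without HOM pool 6/9 the left values were -0.19 for Ramp1, -0.09 for Ramp2 and -0.285 for Ramp3.

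**Figure D3:**
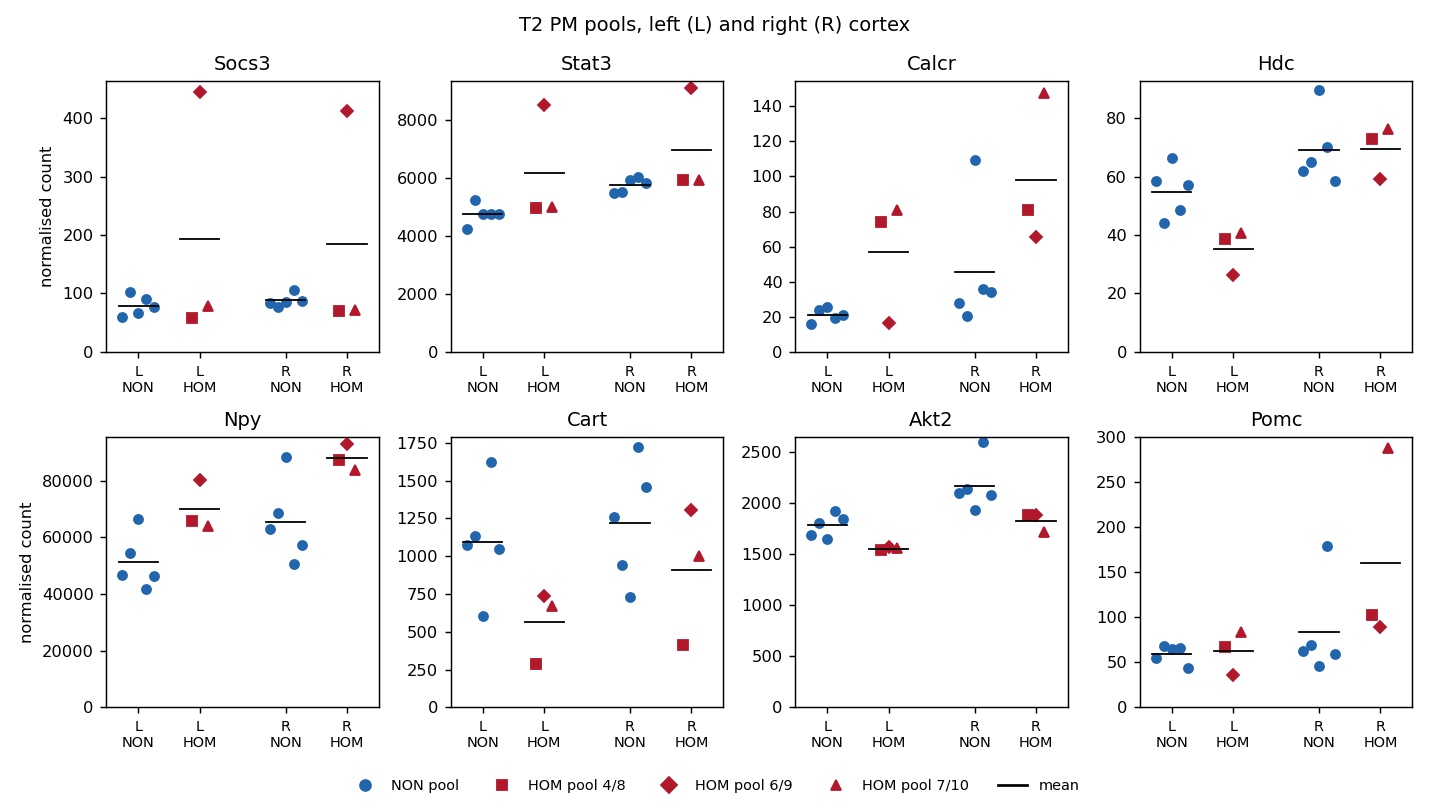
Normalised counts of 8 genes in every T2 PM pool of the left (L) and right (R) cortex, with blue circles for NON, red symbols for the 3 HOM pools and black lines at the group means; every axis starts at 0. Socs3 and Stat3 are raised in HOM pool 6/9 alone, Calcr in HOM pools 4/8 and 7/10 of the left cortex, and Akt2 has no overlap between the groups on either side.

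Transcripts of the hormones themselves were near background. Amylin (Iapp), the mouse gene related to the transgene, had 19.8, 13.7 and 11.6 left cortex counts in HOM pools 4/8, 6/9 and 7/10 and 20.4, 16.9, 14.1, 21.1 and 22.8 in NON. On the right it had 21.9, 16.8 and 31.5 in HOM and 17.6, 21.1, 29.8, 17.5 and 19.3 in NON, and the groups overlapped on both sides. It was above background in 5 of the 16 libraries and did not pass in either cortex (log2 fold-change -0.37, adjusted p = 0.403, and 0.16, adjusted p = 0.818, from edgeR). Leaving out 1 pool moved the left Iapp value from -0.61 (without HOM pool 4/8) to -0.17 (without HOM pool 7/10), and the right from -0.12 (without HOM pool 7/10) to 0.35 (without HOM pool 6/9). Whether its probe reads the human transgene is not given in the sources used here. Ins1 was above background in 1 library and Ins2 in none.

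Adrbk1, the kinase (GRK2) that phosphorylates activated G protein coupled receptors and so starts their desensitisation, fell in the left cortex. It had 10364, 8924 and 9803 normalised counts in HOM pools 4/8, 6/9 and 7/10, against 10384, 11572, 10805, 11217 and 11306 in NON. In the right cortex it had 11144, 11545 and 10898 against 12132, 12812, 11318, 12916 and 11925. The groups did not overlap in the left cortex and overlapped in the right. Adrbk1 differed by -0.19 on the log2 scale (standard error 0.05, adjusted p = 0.0432 from edgeR), close to the left cortex panel median of -0.14, and -0.13 (standard error 0.08, adjusted p = 0.321) in the right. Under TMM the left value shrank to -0.07 (adjusted p = 0.732), and without HOM pool 6/9 it was -0.13 (adjusted p = 0.189). In the summed counts Adrbk1 was the gene nearest to a call (log2 fold-change -0.15, standard error 0.04, unadjusted p = 0.00116, adjusted p = 0.05). Of the beta-arrestins, which bind the phosphorylated receptors, Arrb1, named for its values, had every right cortex HOM pool above every NON pool (log2 fold-change 0.13, adjusted p = 0.32 from edgeR) and overlapped on the left (0.02, adjusted p = 0.864), and Arrb2 was at 0.08 there and at -0.00026 in the left. Their left values were 0.09 and 0.02 without HOM pool 6/9.

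In the insulin signalling list edgeR on the reference gene scale called no gene of 13 in any of the 3 comparisons, and the differences were small. DESeq2 called Gsk3b, Irs1 and mTor in the left cortex and Akt2 and Gsk3b in the summed counts, all lower in HOM. All 13 log2 fold-changes were below 0 in the left cortex (-0.27 to -0.05, median -0.14) and in the summed counts (-0.27 to -0.0023, median -0.10), as were 8 of 13 in the right cortex (-0.31 to 0.07, median -0.05). Of all 43 genes 34 were below 0 in the left cortex, 30 in the summed counts and 21 in the right. The 13 include the Pdk1 probe, which does not belong to this pathway, as given with Akt2. Without it 12 of 12 lay below 0 in the left cortex (median -0.14) and in the summed counts (median -0.10), and 8 of 12 in the right (median -0.06). The counts of all 13 below 0 did not hold without HOM pool 6/9. In the left cortex 11 of 13 were then below 0 (median -0.10), with Insr at 0.03 and Pdk1 at 0.05, and in the summed counts 10 of 13 (median -0.09), beside 30 and 27 of all 43 genes. The medians of all 43 genes were -0.14 in the left cortex, -0.06 in the summed counts and 0.0034 in the right cortex. Under TMM 9 of 13 were below 0 in the left cortex and 9 in the summed counts, beside 23 and 26 of all 43 genes. With the positive control probes as scale 11 of the 13 right cortex values were above 0, beside 32 of 43. Irs1, named for its values, was at -0.27 on the left (adjusted p = 0.0788 from edgeR). It passed without HOM pool 4/8 (-0.36, adjusted p = 0.0375), NON pool 5/10 (-0.31, adjusted p = 0.0483) or the first reference gene (-0.30, adjusted p = 0.0494). Irs1 was -0.18 (adjusted p = 0.274) without HOM pool 6/9 and -0.15 (adjusted p = 0.588) under TMM.

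Akt2, the Akt kinase most tied to glucose uptake, was picked here after its values were seen, because its groups did not overlap on either side. It had 1535, 1564 and 1560 left cortex counts in HOM pools 4/8, 6/9 and 7/10, against 1690.4, 1805, 1648, 1919.9 and 1842 in NON. In the right cortex it had 1884, 1886 and 1712, against 2096, 2139.8, 1930.2, 2595 and 2081. Its log2 fold-changes were -0.20 (left; standard error 0.08, adjusted p = 0.102 from edgeR), -0.25 (right; standard error 0.11, adjusted p = 0.165) and -0.23 (standard error 0.07, adjusted p = 0.0829) in the summed counts. Under TMM the left Akt2 value was -0.08 (adjusted p = 0.836), and with the positive control probes as scale the right was -0.12 (adjusted p = 0.978). Without the first reference gene Akt2 passed on the left (-0.23, adjusted p = 0.0494 from edgeR) and in the summed counts (-0.245, adjusted p = 0.0292). In the summed counts it also passed without NON pool 5/10 (-0.26, adjusted p = 0.0175) and with DESeq2 (-0.23, adjusted p = 0.0244). Against the same NON pools, HEM pools had 1475 to 1616 counts on the left and 1794 to 1995 on the right (log2 fold-change -0.22, adjusted p = 0.116, and -0.21, adjusted p = 0.451). Irs2, an adaptor of the insulin receptor, likewise named for its values, had 2452 to 2804 right cortex counts in HOM and 2824 to 3639 in NON (log2 fold-change -0.31, adjusted p = 0.153), and overlapped in the left (-0.22, adjusted p = 0.247, and -0.09, adjusted p = 0.836, under TMM). Gsk3b, a kinase that Akt inhibits and also named for its values, lay lower in every right cortex HOM pool (23127 to 24592 against 24891 to 26554), at -0.10 (adjusted p = 0.32) there and -0.16 (adjusted p = 0.066) in the left, where it was -0.12 (adjusted p = 0.271) without HOM pool 6/9 and passed without HOM pool 7/10 (-0.195, adjusted p = 0.0429), NON pool 2/15 (-0.19, adjusted p = 0.0307) or NON pool 5/10 (-0.16, adjusted p = 0.0483). Under TMM the left Gsk3b value was -0.03 (adjusted p = 0.836), and the right turned to 0.02 with the positive control probes as scale. The probe listed as Pdk1 has the RefSeq accession of Pdk1, a kinase of pyruvate dehydrogenase, and not of Pdpk1, the phosphoinositide-dependent kinase of insulin signalling. Its log2 fold-changes were -0.14 on the left, which turned to 0.05 without HOM pool 6/9, and 0.07 on the right.

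**Figure D4:**
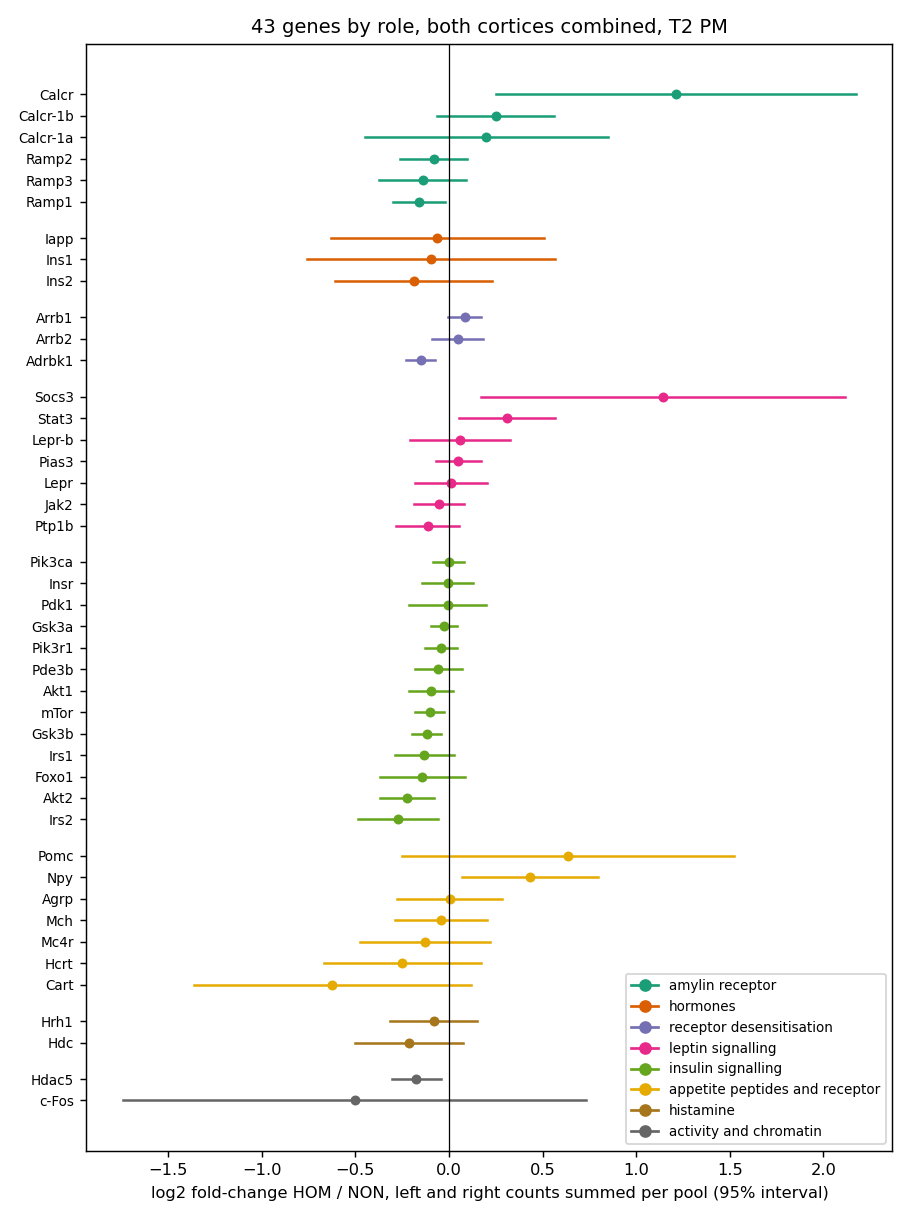
Log2 fold-change of HOM over NON for all 43 genes with the left and right counts of each pool summed (points), with 95% intervals from edgeR (lines), coloured by role list. Calcr (1.21) and Socs3 (1.14) lie farthest to the right with wide intervals, and the 13 insulin signalling genes lie between -0.27 and -0.0023 with narrower ones.

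Among the appetite peptides, no gene of 7 passed. Npy, which drives feeding from the hypothalamus and marks interneurons in the cortex, had 65852, 80149 and 64039 left cortex counts in HOM pools 4/8, 6/9 and 7/10, against 46680.0, 54333, 66655, 41864 and 46202 in NON. On the right side it had 87261, 93009 and 83815, against 62862, 68546, 88259, 50673 and 57408. Only NON pool 5/10 reached the HOM range on either side. Npy differed by 0.45 on the log2 scale (left; standard error 0.18, adjusted p = 0.082 from edgeR) and 0.43 (right; standard error 0.15, adjusted p = 0.153), and Npy passed in both without NON pool 5/10 (0.57, adjusted p = 0.0483, and 0.56, adjusted p = 0.0149). Leaving out any other pool gave 0.34 to 0.51 on the left and 0.35 to 0.46 on the right with no call, and with pools of like age paired as a block the adjusted p was 0.19 and 0.341 from edgeR.

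Cart, a peptide that restrains feeding, had 290, 735 and 671 left cortex counts in HOM pools 4/8, 6/9 and 7/10, against 1074, 1137, 601, 1622 and 1046 in NON. On the right it had 416, 1305 and 998 against 1258, 942, 732, 1719 and 1458. HOM pool 4/8 was the lowest pool on both sides, and the other two overlapped with NON. For Cart the log2 fold-change was -0.95 (standard error 0.39, adjusted p = 0.0828 from edgeR) and -0.43 (standard error 0.36, adjusted p = 0.661). Without HOM pool 4/8 these were -0.64 (adjusted p = 0.289) and -0.09 (adjusted p = 0.947). Cart passed on the left without NON pool 5/10 (-1.11, adjusted p = 0.0483), and on the right it was -0.79 (adjusted p = 0.322) without HOM pool 6/9 and -0.28 (adjusted p = 0.783) without NON pool 6/9. Pomc, the precursor of the appetite-suppressing melanocortins, had 66.8, 36.2 and 83.2 left cortex counts in HOM against 54.6, 67.7, 64.6, 65.96 and 44.1 in NON. Its right cortex counts were 102.6, 89.6 and 287.5 in HOM against 62.7, 68.6, 45.5, 179 and 59.4 in NON, where NON pool 6/9 lay among the HOM pools. On the left Pomc was at 0.09 (adjusted p = 0.864), and at 0.35 (adjusted p = 0.54) without HOM pool 6/9. On the right Pomc was 0.94 higher on the log2 scale (standard error 0.42, adjusted p = 0.165 from edgeR), which became 0.21 (adjusted p = 0.946) without HOM pool 7/10 and passed without NON pool 6/9 (1.44, adjusted p = 0.0492). Agrp, Hcrt, Mch and Mc4r, the other peptides and the melanocortin receptor, were between -0.63 (Hcrt) and -0.01 (Agrp) on the left, and between -0.16 (Mc4r) and 0.10 (Mch) on the right side. The left values of Hcrt and Mch rested in part on HOM pool 6/9, and without it they were -0.32 and -0.15.

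Hdc, the enzyme that makes histamine in hypothalamic neurons and in mast cells, fell in the left cortex. It had 38.6, 26.2 and 40.6 normalised counts in HOM pools 4/8, 6/9 and 7/10, against 58.3, 44.01, 66.3, 48.4 and 57.0 in NON, with no overlap. The histamine receptor Hrh1 had log2 fold-changes of 0.02 on the left side (-0.09 without HOM pool 6/9) and -0.15 on the right. In the right cortex Hdc had 72.8, 59.2 and 76.1 against 62.0, 64.9, 89.5, 70.0 and 58.6, and the groups overlapped. Hdc differed by -0.62 on the log2 scale (standard error 0.18, adjusted p = 0.0432 from edgeR) and 0.01 (standard error 0.19, adjusted p = 0.989). Without HOM pool 6/9 the left value was -0.46 (adjusted p = 0.189). Raw left cortex counts of Hdc were low, at 21 to 80. With the negative controls subtracted the left value was -0.65 and no longer passed (adjusted p = 0.0594 from edgeR). The summed normalised count of the 5 hypothalamic markers was 231, 149.7 and 262.5 in these left cortex HOM pools against 233 to 276 in NON, and 348.5, 366 and 563 against 293 to 456 in the right. The most abundant marker was Mch, except in right cortex HOM pool 7/10 and NON pool 6/9, where it was Pomc. All 5 markers were above background in every right cortex library, and in the left Hcrt was under it in HOM pools 6/9 and 7/10 and Agrp in NON pool 5/10. The part of these markers in the Hdc and Pomc values was not tested.

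The immediate early gene c-Fos, a marker of recent neuronal activity, had 2918, 4957 and 2575 left cortex counts in HOM pools 4/8, 6/9 and 7/10 and 3697, 5393, 3639.5, 7276 and 3700.2 in NON. Its right cortex counts were 2661, 5838 and 3161 against 4305, 7417, 3973, 8379 and 4190.0. HOM pools 4/8 and 7/10 lay below every NON pool on both sides and pool 6/9 inside the NON range. Log2 fold-changes were -0.45 (95% interval -1.60 to 0.71) on the left and -0.54 (-1.64 to 0.56) on the right. Leaving out 1 pool at a time gave c-Fos -0.79 (without HOM pool 6/9) to -0.24 (without NON pool 6/9) on the left, and -0.96 (without HOM pool 6/9) to -0.33 (without HOM pool 4/8) on the right. Hdac5, a histone deacetylase named for its values, had 7767 to 8299 right cortex counts in HOM against 8386 to 10355 in NON (log2 fold-change -0.19, adjusted p = 0.165 from edgeR). Its groups overlapped in the left cortex, at -0.14 (adjusted p = 0.231), which ran from -0.23 (without HOM pool 6/9) to -0.08 (without HOM pool 4/8) and was -0.01 (adjusted p = 0.911) under TMM. With the positive control probes as scale its right value was -0.06 (adjusted p = 0.978).

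The 2 cortices were then set against each other. Over the 43 genes the log2 fold-changes of left and right had a Pearson r of 0.738 and a Spearman rho of 0.409, given as a description, since both come from the same mice, the genes are not independent and each cortex has its own scale. Without HOM pool 6/9 they were 0.749 and 0.509. Both fold-changes were above 0 for 7 genes and below 0 for 19, so 26 of 43 shared a sign, and 29 did under TMM and 18 with the positive control probes as scale. Deviations of a pool from its group mean also went together between the cortices, with r over the 43 genes of 0.38 to 0.70 in the 8 pools.

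A test of the difference itself, with the pool as a block, called no gene (0%). At an unadjusted p under 0.05 it gave 6, Cart, Hdc, Pde3b, Pias3, Pik3ca and Pomc, all with the lower HOM effect in the left cortex and an adjusted p of 0.225 or more from edgeR. Pomc was at -0.93 (95% interval -1.74 to -0.13), and ran from -1.28 without NON pool 6/9 to -0.53 without HOM pool 7/10. Hdc, called in the left cortex alone, differed by -0.64 (95% interval -1.19 to -0.09, adjusted p = 0.225), so the left cortex call was not shown to be limited to that side. For Socs3 the difference was 0.19 (-0.23 to 0.62), for Stat3 0.08 (-0.06 to 0.23), for Npy 0.02 (-0.09 to 0.12), for Akt2 0.05 (-0.14 to 0.23) and for Calcr 0.19 (-1.05 to 1.44). Npy, Stat3 and Akt2 had narrow intervals, while that of Calcr leaves room for a large difference in either direction.

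**Figure D5:**
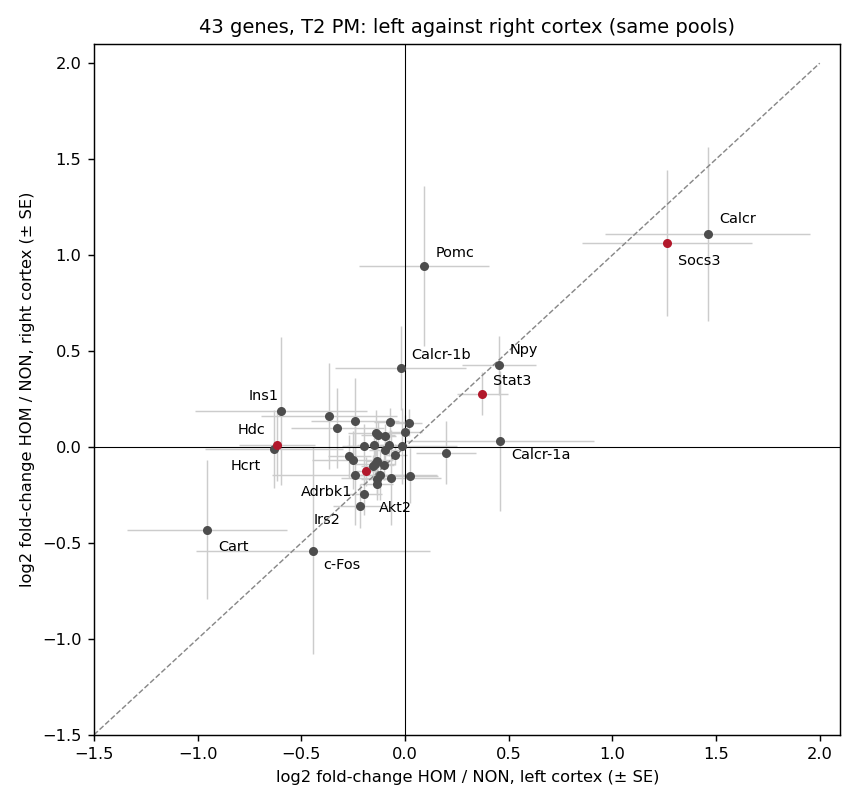
Log2 fold-change of HOM over NON in the left cortex (x axis) and the right cortex (y axis) for the 43 genes, with standard errors as grey bars, red points for the 4 genes called in the left cortex and a dashed line of equality. Calcr, Socs3, Npy and Stat3 lie in the upper right near the line, Cart and c-Fos in the lower left, and Hdc lies on the horizontal zero line at -0.62.

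Morning (AM) pools and HEM pools of T2 set the PM HOM values in context. The AM mice were 133 and 162 days old in HOM pool 1/3, 224 in HOM pool 5 (a single mouse), 130 and 162 in NON pool 1/3, and 286 and 222 in NON pool 7/8. Between these 2 HOM and 2 NON pools no gene passed in the left cortex (0%; 0 genes at an unadjusted p under 0.05) or in the right (0%; 1 gene, Iapp). Socs3 in AM was 71.3 and 82.2 in HOM against 80.2 and 83.0 in NON in the left cortex, and 87.3 and 116 against 96.3 and 91.6 in the right. The PM effect minus the AM effect called no gene in either cortex (0% in each; 2 genes, Adrbk1 and Hdc, and 0 genes at an unadjusted p under 0.05 by edgeR). For Socs3 that difference was 1.35 on the left (95% interval -0.12 to 2.82) and 0.95 on the right side (-0.40 to 2.30). The PM effect in it rests on HOM pool 6/9, and without that pool was -0.20 on the left and -0.32 on the right. HOM PM against HEM PM also called no gene in either cortex (0% in each; unadjusted p under 0.05 for 15 and 4 genes). Of these c-Fos was at -1.66 on both sides (adjusted p = 0.0799 and 0.396 from edgeR). Against NON, HOM c-Fos was only at -0.45 and -0.54. The HEM pools also differed from NON in c-Fos at an unadjusted p under 0.05 from edgeR in both cortices. The study reports higher c-Fos in HEM PM cortices, so the HOM to HEM gap is not a HOM change alone.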

How the data were processed

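RNA of 43 target and 3 reference genes was counted with the NanoString nCounter system, and the authors deposited raw counts with 6 positive and 8 negative control probes, not normalised. The study itself used NanoStringDiff, which was not run here. Pools were grouped by the labels' time point, genotype, region and collection time, and 12 T1 HEM pools, whose collection time the labels used here leave unassigned, entered no comparison. Counts were fitted with edgeR 4.0.16 (R 4.3.3; limma 3.58.1) by the quasi-likelihood test. Library size was the geometric mean of the 3 reference genes, and p-values were Benjamini-Hochberg adjusted over the 43 genes and called under 0.05. Each cortex was fitted over all its pools with a collection time, 45 in the left and 46 in the right. The summed counts used 17 T2 pools, and the left minus right test their 34 libraries with pool as a block. In the cortex and summed fits p-values rest on the spread between pools of different mice. That spread was estimated over all pools in the fit, not only the groups compared. In the left minus right test they rest on how the left-right difference varies between pools. Scripts were tested on simulated data. DESeq2 1.42.0, other scalings, filters, subsets and left-out pools were alternatives, and leaving out HOM pool 6/9 with NON pool 5/10 was added after seeing the data.

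Members, gene lists and tests were chosen with earlier results of these data known. Values in every pool are given for Iapp, each gene called in the left, right or summed comparison, c-Fos, Calcr, Socs3, Cart, Npy, Pomc and the gene with the largest change in each cortex. Other genes are given by range, and any added for its values is named as such. Pools of like age were checked as pairs by correlating their deviations from the group means over the 43 genes. This gave 0.06, 0.57 and -0.21 in the left and 0.20, 0.32 and 0.24 in the right cortex, and the age match is in the labels. None of the 26 pairs of libraries within a group agreed within sampling noise. Results on 1 reference gene are not reported here. Figures were drawn with Python 3.11.15 and matplotlib 3.10.9.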

Additional observations from a re-analysis of the deposited data

Results flagged for a closer look

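In groups of 5 NON pools, a pool is named here when its gap to the nearest other pool, as a share of the group's range, was above Dixon's 95% critical value for 5 samples. Of 30 such groups 2 were named, and chance gives about 1 in 20. Calcr in the right cortex of NON pool 5/10 was at 109.6 normalised counts, where the other 4 NON pools had 20.4 to 35.7. Pomc in the right cortex of NON pool 6/9 was at 179.1, where the other 4 had 45.5 to 68.6. This was not applied to groups of 3 pools, so HOM pool 6/9 was not tested by it.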

How the results depend on the processing

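In the left cortex 4 genes were called, and requiring an absolute log2 fold-change above 1 left 1 and above 0.58 left 2. The count was 0 with the positive control probes as scale, without the third reference gene, with only the groups compared in the fit, with only the 3 age-matched NON pools and with the age pairs as a replicate block. It was 8 without the first reference gene and 8 with DESeq2. With the negative controls subtracted it was 4, with Calcr called and Hdc not. Leaving out 1 pool gave 0 (without NON 6/9, and also without NON 11/14) to 9 calls (without NON 5/10), with 1 without HOM 6/9, which was Calcr, and 2 without NON 2/15. In the right cortex, with 0 calls, leaving out 1 pool gave 0 to 2: Socs3 without HOM 4/8 or 7/10, Pomc without NON 6/9, and Calcr and Npy without NON 5/10. The summed counts, with 0 calls, gave 4 without the first reference gene, 3 with DESeq2 and 1 (Adrbk1) with genes at or under background left out. Leaving out 1 pool gave 0 to 7 (without NON 5/10), with 2 without NON 2/15. With HOM pool 6/9 and NON pool 5/10 both left out, the counts were 1, 1 and 3 in the left, right and summed comparisons, Calcr among them each time. The replicate block gave 0 calls in the right cortex and in the summed counts. The left minus right and PM minus AM comparisons had 0 calls under every alternative run.

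Some log2 fold-changes changed sign. Socs3 turned to -0.25, -0.32 and -0.28 (left, right, summed) without both pools, and ran from -0.20 to 1.70, -0.32 to 1.45 and -0.25 to 1.55 with 1 pool left out, lowest without HOM 6/9. Pomc in the left cortex was -0.063 with matched NON pools and -0.13 with the replicate block, and ran from -0.19 to 0.35 with 1 pool left out. Hdc in the right cortex was -0.0013 with DESeq2 size factors, -0.0051 without the first reference gene, -0.11 with matched NON pools and -0.10 with the replicate block, and with 1 pool left out ran from -0.063 to 0.12, below 0 for 5 of the 8 pools (-0.063 without HOM 7/10, -0.043 without NON 11/14, -0.028 without NON 2/15, -0.027 without HOM 4/8 and -0.012 without NON 4/13). With positive control scaling Gsk3b was 0.022 and Irs1 0.070 in the right cortex, where Irs1 ran from -0.094 to 0.016 with 1 pool left out. Iapp in the summed counts was 0.10 with negative controls subtracted and 0.11 without both pools, and ran from -0.14 to 0.068, and in the right cortex from -0.12 to 0.35. The cause of these changes was not tested, except that left-out pools leave fewer samples. With 3 HOM pools, calls turn on single pools, and the fold-changes of the 8 genes not above background in every library rest in part on libraries at or under background.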
